A study of Mus musculus with 27 samples.

Results

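The liver of 2-week-old sons was compared between dams on a Western-style diet (WSD) and dams on a low fat diet (LFD). The 12 arrays whose labels give a male pup were chosen, 6 sons of LFD dams and 6 sons of WSD dams, of 27 arrays in all. All pups were C57BL/6J mice and the labels give no mutation and no drug. The LFD supplied 10% of its energy as fat, 20% as protein and 70% as carbohydrate, with 18.0 mg cholesterol per kg and 3.85 kcal per g. The WSD supplied 45% as fat, 20% as protein and 35% as carbohydrate, with 196.5 mg cholesterol per kg and 4.73 kcal per g. Dams ate these diets from 6 weeks before mating until the pups were taken, through pregnancy and lactation, and sires were kept on a control diet. Litter sizes were standardized. Sons are called LFD sons and WSD sons below after the diet of the dam, and single pups by diet and the replicate number of their titles, m-LF1 to m-LF6 and m-WS1 to m-WS6. Whole liver was measured, so a lower signal from fewer cells of a type and from less RNA per cell cannot be told apart.

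The liver lobule is divided into zones. Hepatocytes around the central vein take up ammonia into glutamine and carry much of the cytochrome P450 metabolism of drugs and steroids, and those around the portal vein make glucose and urea. Endothelial cells of the central vein secrete Wnt ligands and R-spondin, which keep beta-catenin signalling active in the hepatocytes next to them. At this age the mouse liver still sheds its foetal programme, holds remnants of blood formation, and lives on fat-rich milk before weaning.

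Each son was measured on 1 Affymetrix Mouse Gene ST array, and values are log2 intensities after robust multi-array averaging (RMA) by the authors. Of 18820 genes, 10810 passed filters on intensity and variability and were tested in limma, with all 27 arrays sharing an estimate of the spread. A change is the mean of the WSD sons minus that of the LFD sons on the log2 scale. A gene is said to have risen or fallen when its limma p was 0.01 or less, and p adjusted over the 10810 genes by Benjamini-Hochberg is given beside the change. This unadjusted threshold is also the one in the study's methods. The median SD of a gene was 0.128 in LFD sons and 0.116 in WSD sons. All 30 measured hepatocyte markers lay above the array median in every son.

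A pair of libraries stood apart. Xist, the noncoding RNA of the inactive X chromosome of female cells, was at 9.30 in m-LF6 and 7.92 in m-WS1, against 3.25 to 4.50 in the other sons and 11.67 to 11.88 in the daughters. The Y-linked Eif2s3y was at 8.31 in m-LF6 and 8.70 in m-WS1, against 2.74 to 3.22 in the daughters, and so at the level of the other sons (8.23 to 8.95). The labels call both pups male, and the source of the Xist signal was not tested. Each array name holds a number of unstated meaning. LFD sons have 37, 49 or 50, with 2 sons on each, and WSD sons have 40, with 2 sons, or 48, with 4. Some daughters carry each of these numbers. Where the sons on a number are left out below, its daughters are left out too. Each number lies within 1 maternal diet, so number and diet cannot be told apart. A random block for the number allows for likeness among its pups, with 1 correlation (0.0887) for all genes. It does not separate number from diet. A prefix of the array names, G073 or G074, holds sons of both diets, and its meaning is not given either. Nothing in the labels says which pups are littermates, so p-values treat pups as independent.

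Of the 10810 genes, 327 rose and 281 fell in WSD sons (5.62% of those tested; 3.02% rose and 2.6% fell). At an adjusted p under 0.05, 35 rose and 44 fell (0.731%). Most changes were small. Of the 608 called genes, 16 changed by a log2 value of 1 or more, 96 by 0.5 or more and 255 by less than 0.25, with a median of 0.27 for rises and -0.28 for falls. The 6 WSD sons lay wholly above or below the 6 LFD sons for 150 genes (1.39%), of which 106 were called. With the array number taken as a random block, 422 genes were called at p 0.01 and 7 at an adjusted p under 0.05, namely Krt20, Cyp2b10 and Ces1e, which rose, and Cyp2c50, Cyp2d13, Pklr and Pls1, which fell. Of the genes described below, this fit ended the calls at p 0.01 of Abcg8, Acacb, Bmp6, Cd177, Cdc6, Cox6b1, Cyp2d40, Cyp3a13, Dab2, Fbln2, Gsto1, H2-Ab1, Hal, Lama4, Lgals2, Lgr5, Lrat, Lrp5, Nkg7, Notum, Paqr9, Pdk4, Sc5d, Serpina3n, Spib and Sult1c2, with p up to 0.0241. Without m-LF6, 289 genes passed the adjusted threshold, and without m-LF6 and m-WS1 229. Within prefix G073, 400 of the 10810 genes were called at p 0.01. Within G074, where m-LF6 is 1 of the 2 LFD sons, 114 were called, so few calls of a list there say little. After each array was shifted to a common median, 42.0% of the called genes rose, against 53.8% as deposited.

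**Figure D1:**
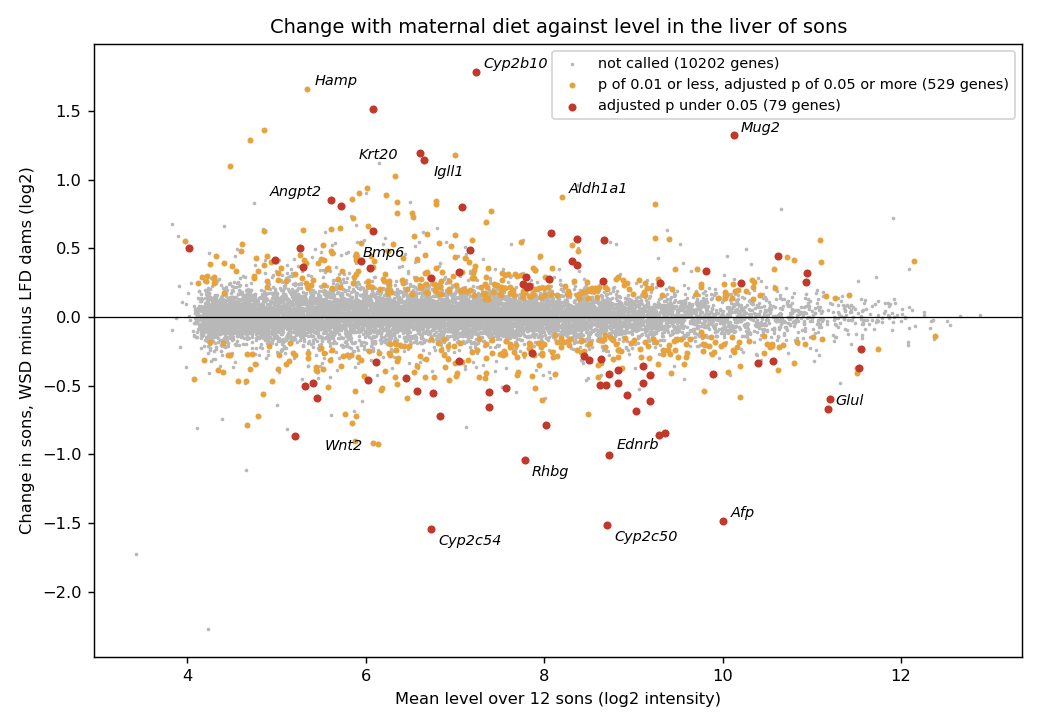
Change in sons (mean of WSD sons minus mean of LFD sons, log2) on the vertical axis against the mean level over the 12 sons (log2 intensity) on the horizontal axis, for the 10810 tested genes. Red points are the 79 genes at an adjusted p under 0.05 and orange points the other genes at p of 0.01 or less; Cyp2b10 lies highest among the named genes at 1.78, and Cyp2c54 at -1.54 and Cyp2c50 at -1.52 lie lowest.

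Pericentral genes formed the list with the lowest median. Of 34 tested genes, 12 fell, 1 rose and 30 had a negative change, with a median of -0.25 against 0.01 over all tested genes. Without m-LF6, 15 fell and 2 rose, and in the random-block fit 10 fell and 1 rose. Only 7 fell without the sons on number 40 or without those on 37, 8 without those on 49, and 6 within prefix G074. The mean level of the list, set against the mean of the LFD sons, was from -0.18 to 0.11 in LFD sons and from -0.46 to -0.21 in WSD sons. There was no overlap between groups, and the lowest LFD son was m-LF6. The 2 sons on number 40 were the lowest of all, at -0.46 and -0.38, while the 4 sons on number 48 lay between -0.28 and -0.21.

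The ammonia-handling enzyme of the central zone was among the genes that fell. Glul, glutamine synthetase, which joins ammonia to glutamate in the innermost ring of hepatocytes, was at 11.18, 11.62 and 11.64 (lowest, median and highest) in LFD sons and at 10.63, 10.83 and 11.03 in WSD sons. No WSD son reached the lowest LFD son. The change was -0.67 ± 0.16 (SE; limma, adjusted p = 0.0392), with -0.65 within G073 and -0.64 within G074, and both probe sets of the gene gave -0.67. Rhbg, an ammonium transporter of the same cells, was at 7.45, 8.46 and 8.72 in LFD sons and at 6.92, 7.30 and 7.53 in WSD sons. Only m-LF6 lay within the WSD range, and the change was -1.04 ± 0.25 (adjusted p = 0.043), or -1.21 without m-LF6. Slc13a3, a carrier of dicarboxylates such as succinate, fell by 0.60 on the log2 scale (adjusted p = 0.0173), from 11.13 to 11.76 in LFD sons to 10.80 to 10.99 in WSD sons, again with no overlap.

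A pair of genes of the Cyp2c subfamily, P450 enzymes that oxidise fatty acids and drugs, had the steepest falls of the pericentral list. Of 10 tested Cyp2c genes 3 fell and none rose, and the other 7 changed by -0.18 to 0.13. Cyp2c50 was at 8.57, 9.49 and 10.25 in LFD sons and at 7.66, 7.89 and 8.60 in WSD sons. All WSD sons but m-WS5 lay below the lowest LFD son, m-LF6. Its change was -1.52 ± 0.25 (adjusted p = 0.00448), a level 0.35 times that of LFD sons. Cyp2c54 changed by -1.54 ± 0.38 (adjusted p = 0.0466), and m-LF5 stood out at 9.53 while the other LFD sons were at 6.34 to 7.63 and the WSD sons at 5.59 to 6.56. Cyp2c37 changed by -0.41 (adjusted p = 0.107), a call that was lost without m-WS2, where p rose to 0.0102. The 250 bases before the starts of Cyp2c37 and Cyp2c50 are identical at 84.3% of aligned positions. Array probes can share signal between genes of a family, but the transcripts were not compared, so this was not tested.

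Several targets and feedback genes of beta-catenin signalling fell as well. Lgr5, a receptor for R-spondin, changed by -0.52 (adjusted p = 0.138), from 7.75 to 8.50 in LFD sons to 7.42 to 7.87 in WSD sons. Notum, a secreted enzyme that inactivates Wnt ligands, changed by -0.46 (adjusted p = 0.171), Nkd1, an inhibitor inside the cell, by -0.33 (adjusted p = 0.085), and Znrf3, a ubiquitin ligase that removes Wnt receptors, by -0.28 (adjusted p = 0.08). Of these 4, only Nkd1 had groups that did not overlap. The calls of Lgr5 and Notum were lost when single pups were left out, with p up to 0.0187 and 0.0375. Gulo, the last enzyme of vitamin C synthesis, changed by -0.23 (adjusted p = 0.131) and Slc1a4, a carrier of neutral amino acids, by -0.43 (adjusted p = 0.0392), and the call of Gulo was lost without some single pups, with p up to 0.0157. Aldh1a1, which makes retinoic acid from retinal, was the member that went the other way. It was at 7.45, 7.60 and 8.70 in LFD sons and at 8.38, 8.65 and 8.93 in WSD sons, a change of 0.87 ± 0.24 (adjusted p = 0.0736). The highest LFD value was that of m-LF6, and without this pup the change was 1.06.

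**Figure D2:**
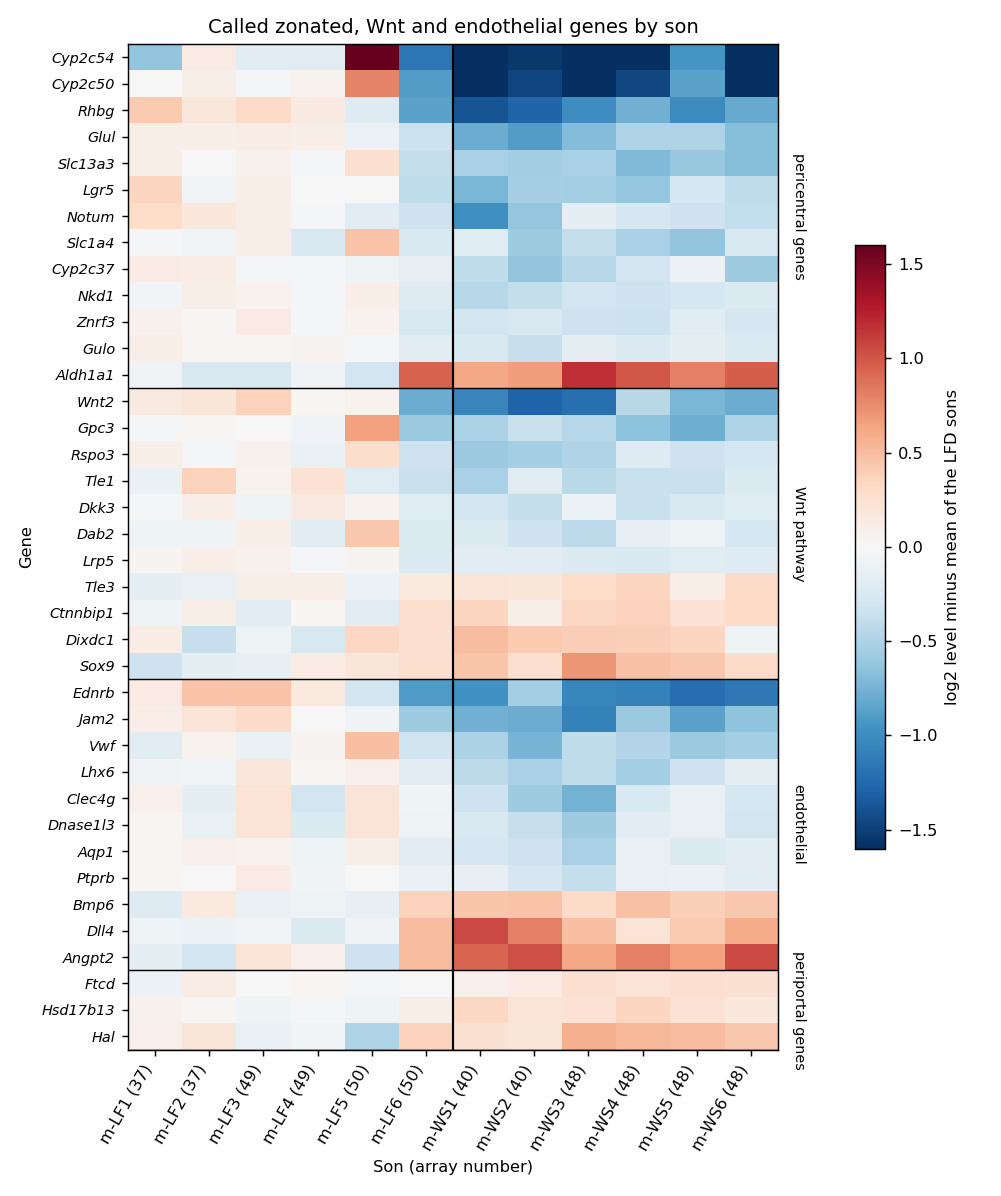
Level of each called pericentral, Wnt, endothelial and periportal gene (rows) in each son (columns, with the number of the array name in brackets), as log2 level minus the mean of the 6 LFD sons; blue is lower and red higher, and colours stop at 1.6 in either direction. The blue block of pericentral rows spans the 6 WSD sons and is also seen, paler, in m-LF6, whereas Aldh1a1, Angpt2, Dll4 and Bmp6 are red in the WSD sons.

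The Wnt pathway list, with ligands, receptors and intracellular parts, held 56 tested genes, of which 11 fell and 4 rose (26.8% called), with a median of -0.01. Lgr5, Notum, Nkd1 and Znrf3 belong to this list as well. Without m-LF6, 12 fell and 5 rose. Within prefix G074, where 114 of all 10810 tested genes were called, none of the list was. In the random-block fit 7 fell and 4 rose, and Lgr5, Notum, Lrp5 and Dab2 lost their calls, with p up to 0.0147. Among ligands and agonists, Wnt2, which endothelial cells of the liver secrete, was at 5.75, 6.64 and 6.91 in LFD sons and at 5.26, 5.62 and 6.10 in WSD sons. The 5 LFD sons other than m-LF6 were at 6.57 or more and all WSD sons at 6.10 or less. The change was -0.92 ± 0.23 (adjusted p = 0.057), or -1.08 without m-LF6. Rspo3, the R-spondin of the central vein, fell with a change of -0.41 ± 0.12 (adjusted p = 0.0839), from 6.90 to 7.51 in LFD sons to 6.63 to 7.02 in WSD sons. Among receptors and modulators, the co-receptor Lrp5 (-0.20), the secreted Dkk3 (-0.26), the surface proteoglycan Gpc3 (-0.54), the adaptor Dab2 (-0.24) and the co-repressor Tle1 (-0.35) fell. Ctnnbip1, an inhibitor that keeps beta-catenin from its transcription partners, rose by 0.28 (adjusted p = 0.0351), from 6.42 to 6.86 in LFD sons to 6.68 to 6.96 in WSD sons. Its change was 0.41 within G073 and 0.07 within G074. The co-repressor Tle3 (0.24), Dixdc1 (0.33), a protein that promotes the signal, and Sox9 (0.43), a transcription factor of bile duct cells, also rose. Of the called genes of the list, Wnt2, Lrp5, Dab2, Dkk3, Gpc3, Ctnnbip1, Dixdc1 and Sox9 were named by the study from these pups, so the counts of the list are not independent evidence of its direction. The calls of Dab2, Dixdc1, Lrp5 and Tle1 were lost when single pups were left out, with p up to 0.0286. Without the 2 sons on number 40, 4 genes of the list fell and 3 rose, and 5 or 6 fell without the sons on number 37, 48 or 49.

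Liver endothelial markers split. Of 43 tested genes, 10 fell and 3 rose (30.2% called), and the median was 0.00, so the list had no common direction. Without m-LF6 the counts were the same. Within prefix G073 alone 7 fell and 4 rose. Within G074, where 114 of all 10810 tested genes were called, none fell and 1 rose. Ednrb, a receptor for endothelin, was at 8.32, 9.38 and 9.68 in LFD sons and at 8.01, 8.16 and 8.68 in WSD sons. All WSD sons but m-WS2 lay below the lowest LFD son, m-LF6. The change was -1.0 ± 0.21 (adjusted p = 0.0232). Jam2, an adhesion molecule of the junctions between endothelial cells, was at 7.85, 8.47 and 8.72 against 7.34, 7.64 and 7.83, with no overlap and a change of -0.79 ± 0.15 (adjusted p = 0.0155). Vwf, von Willebrand factor, which large vessels store, fell by 0.54 on the log2 scale (adjusted p = 0.033), and its groups did not overlap either. Clec4g (-0.38) and Dnase1l3 (-0.29), genes of the sinusoids, the water channel Aqp1 (-0.27), the phosphatase receptor Ptprb (-0.20) and the transcription factor Lhx6 (-0.40) fell with adjusted p-values from 0.0728 to 0.102, beside Wnt2 and Rspo3.

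The endothelial genes that rose were signalling molecules. Angpt2, a ligand that loosens vessel walls, was at 4.86, 5.15 and 5.70 in LFD sons and at 5.81, 6.06 and 6.25 in WSD sons. No WSD son lay below an LFD son, and the change was 0.85 ± 0.21 (adjusted p = 0.0437), with 0.85 within G073 and 0.81 within G074. Dll4, a Notch ligand, was at 6.48, 6.63 and 7.19 against 6.91, 7.24 and 7.75, a change of 0.60 ± 0.17 (adjusted p = 0.081). In m-LF6 it was at 7.19, within the WSD range, and in the other LFD sons at 6.65 or less. Bmp6, the bone morphogenetic protein that endothelial cells send to hepatocytes to set hepcidin, was at 5.47, 5.58 and 6.05 against 5.98, 6.12 and 6.15. Only m-LF6 lay within the WSD range. The change was 0.41 ± 0.14 (adjusted p = 0.16), with 0.56 within G073 and 0.13 within G074. The call of Bmp6 was lost when any of 9 single pups was left out, with p up to 0.0209.

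**Figure D3:**
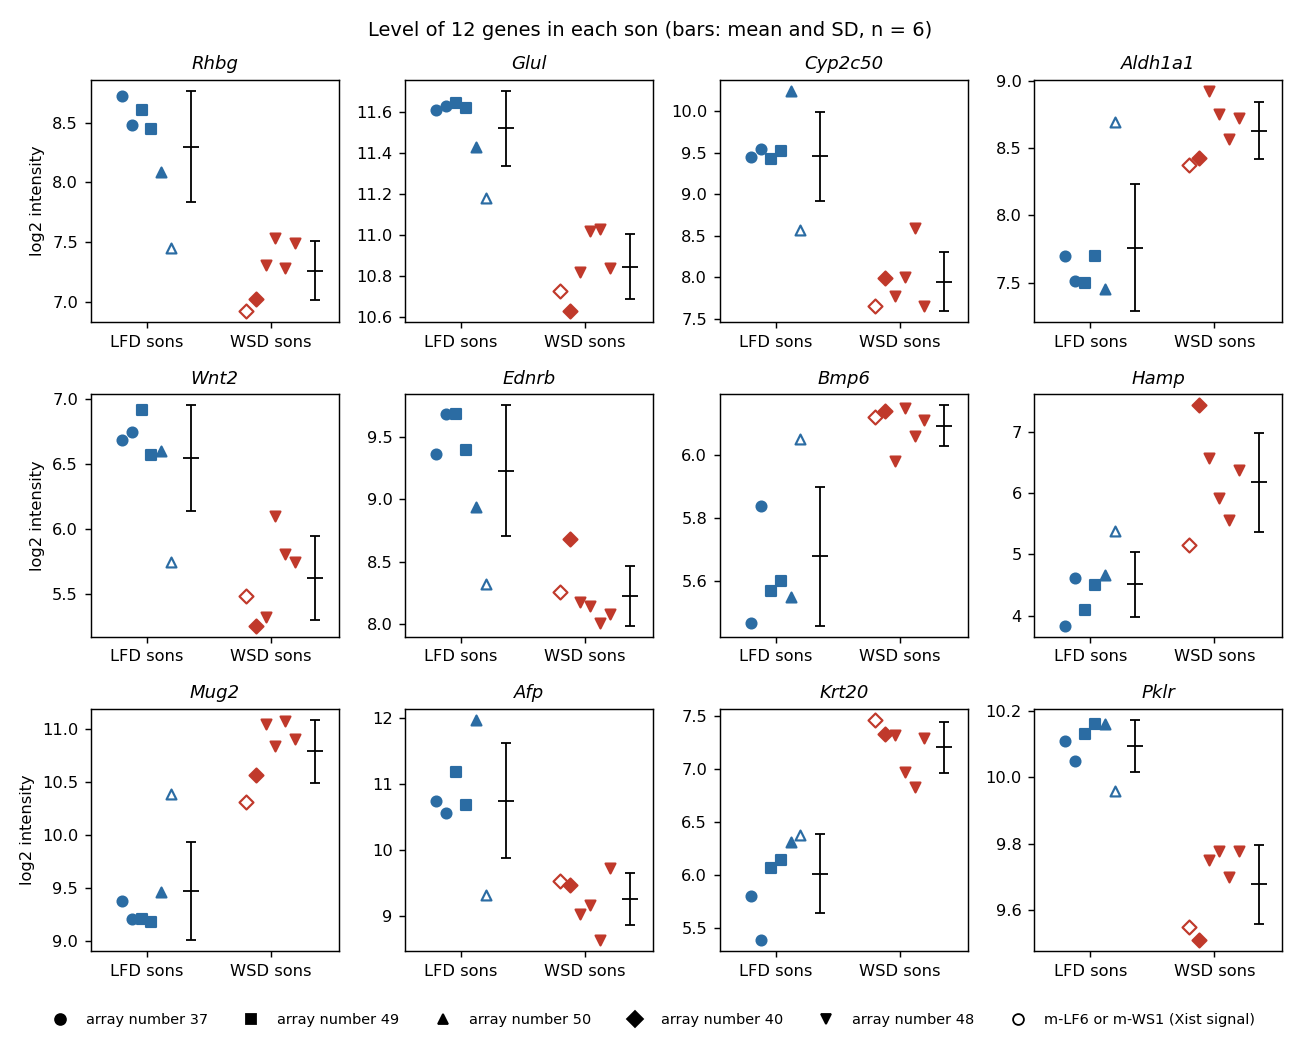
Level (log2 intensity, vertical axis) of 12 genes in each LFD son (blue) and WSD son (red), with the number of the array name as the shape of the point, open points for m-LF6 and m-WS1, and the mean and SD (n = 6) beside each group. The open blue triangle, m-LF6, lies among or next to the WSD sons for Rhbg, Cyp2c50, Aldh1a1, Wnt2, Ednrb, Bmp6, Mug2 and Afp, whereas for Glul, Krt20 and Pklr all WSD sons lie beyond it.

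Hepcidin, the peptide hormone by which the liver holds back iron in gut cells and macrophages, rose. Mice have a pair of hepcidin genes side by side, Hamp and Hamp2, and BMP ligands raise Hamp through elements with the core GGCGCC. The sequences before both genes are shown because the array measured both and they differ within this core. They are given from RefSeq on GRCm38.p6, as the 250 bases that end at the gene start, 5′ to 3′ on the minus strand, at chr7:30944030-30944279 for Hamp and chr7:30924182-30924431 for Hamp2. Capitals mark the core in Hamp, which begins at position -109 from the gene start, and the aligned bases in Hamp2, which begin at -106.
Hamp: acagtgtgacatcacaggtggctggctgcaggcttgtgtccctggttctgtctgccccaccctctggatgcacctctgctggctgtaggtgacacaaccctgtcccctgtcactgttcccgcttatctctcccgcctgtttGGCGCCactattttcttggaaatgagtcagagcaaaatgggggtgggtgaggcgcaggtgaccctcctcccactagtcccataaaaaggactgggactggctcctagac
Hamp2: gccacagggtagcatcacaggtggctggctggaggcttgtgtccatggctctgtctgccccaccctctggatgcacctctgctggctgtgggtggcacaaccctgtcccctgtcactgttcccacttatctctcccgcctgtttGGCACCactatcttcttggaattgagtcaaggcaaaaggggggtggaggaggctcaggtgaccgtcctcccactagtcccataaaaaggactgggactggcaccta
The sequences are identical at 227 of 253 aligned positions (89.7%), and within the core the substitution from Hamp to Hamp2 is G4A, counted from 1 at its first base. The letters GGCGCC, which read the same on both strands, occur in this window for 2931 of 27025 genes (10.8%). A match describes letters and not binding.

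Hamp was at 3.84, 4.56 and 5.38 in LFD sons and at 5.16, 6.15 and 7.43 in WSD sons. Only m-WS1, at 5.16, lay below the highest LFD son, m-LF6 at 5.38. The change was 1.66 ± 0.43 (adjusted p = 0.0577), a level 3.16 times that of LFD sons, and the 2 pups with an Xist signal were the ones nearest the other diet. This ratio starts from a low level, as the LFD median of 4.56 lay below the array medians of the sons, 5.34 to 5.39. Hamp2 was at 5.79, 5.83 and 6.42 in LFD sons and at 6.48, 6.71 and 7.18 in WSD sons. The groups did not overlap, and the change was 0.84 ± 0.24 (adjusted p = 0.088). Probes for such copies can share signal, so the values of Hamp and Hamp2 are not taken as independent, though their transcripts were not compared. In daughters the change of Hamp was -0.48, and the difference between sons and daughters had an adjusted p = 0.355. Tfrc, the transferrin receptor that takes up iron, was not called, with a change of -0.16 (adjusted p = 0.257).

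Other secreted liver proteins of the acute phase list rose too. Of 34 tested genes, 5 rose, Hamp and Hamp2 among them, and 2 fell (20.6% called), with a median of 0.02. Without the 4 sons on number 48, 1 rose and 1 fell, and without the 2 on number 40, 5 rose and 1 fell. Mug2, a murinoglobulin that traps proteases in plasma, was at 9.18, 9.29 and 10.38 in LFD sons and at 10.31, 10.87 and 11.07 in WSD sons. Every LFD son but m-LF6 was at 9.46 or less. The change was 1.32 ± 0.32 (adjusted p = 0.0443), its other probe set gave 1.40, and its neighbour Mug1 changed by 0.56 (adjusted p = 0.057). Saa2, serum amyloid A, changed by 1.10 (adjusted p = 0.0745), with the WSD sons spread from 4.08 to 5.97 and the LFD sons from 3.55 to 4.28. All LFD values lay below the filter threshold, an intensity of 20 before the log2 step. Over the other settings the change ran from 0.3 to 1.5. Serpina3n, a protease inhibitor of plasma, fell by 0.14 on the log2 scale (adjusted p = 0.131), so the list did not move together, and leaving out any of 4 pups ended that call, with p up to 0.0168. Steap4, a metalloreductase, fell by 0.21 on the log2 scale (adjusted p = 0.148), with p up to 0.0283 when single pups were left out.

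Cytochrome P450 genes of drug metabolism included 9 that fell and 2 that rose of 33 tested (33.3% called), with a median of -0.07. The counts were the same without m-LF6. Without the sons on number 48, 3 fell and 1 rose, and without those on number 40, 6 fell and 2 rose. Without those on number 37, 49 or 50, 6, 8 and 9 fell and 1 rose each time. In the random-block fit 8 fell and 1 rose. Within prefix G073, 6 fell and 2 rose. Within G074, where 114 of all 10810 tested genes were called, 5 fell and 1 rose. Cyp2b10, a marker of the drug receptor CAR, was at 5.77, 6.08 and 7.93 in LFD sons and at 7.71, 8.18 and 8.53 in WSD sons. Only m-LF6 was in the WSD range, and the change was 1.78 ± 0.31 (adjusted p = 0.007), or 2.10 without it. Its neighbour in the same family, Cyp2b13, moved the other way, with a change of -0.61 (adjusted p = 0.085) and no overlap between groups. Cyp2d13 (-0.68, adjusted p = 0.0027) and Cyp2d9 (-0.48, adjusted p = 0.0392), enzymes of the Cyp2d cluster, fell with no overlap. Cyp2d40 (-0.44), Cyp3a44 (-0.40) and Cyp3a16 (-0.34) fell at p 0.01 without passing the adjusted threshold. Cyp3a13 rose by 0.24 (adjusted p = 0.168). The calls of Cyp2d40, Cyp3a16 and Cyp3a13 were lost without single pups, with p up to 0.0378.

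Among carboxylesterases and aldo-keto reductases, enzymes that split esters and reduce steroids and aldehydes, 5 of 23 tested genes rose and 1 fell (26.1% called). Without the 4 sons on number 48, 1 rose and none fell, and without the 2 on number 40, 5 rose and none fell. Within prefix G074, where 114 of all 10810 tested genes were called, 1 rose and none fell. Ces1e was at 7.30, 7.83 and 8.10 in LFD sons and at 8.22, 8.35 and 8.61 in WSD sons. Every WSD son lay above every LFD son, and the change was 0.61 ± 0.11 (adjusted p = 0.0114). Ces1g, which hydrolyses triglyceride in hepatocytes, changed by 0.82 (adjusted p = 0.0947), Ces3b by 0.94 (adjusted p = 0.0989), Akr1c19 by 0.52 (adjusted p = 0.057) and Akr1c13 by 0.28 (adjusted p = 0.0537). For both Akr1c genes the groups did not overlap. The study named Ces1e, Ces1g, Ces3b and Akr1c13 from these pups, so the counts of the list are not independent evidence of its direction. In Ces3b the 2 sons on number 40, at 5.75 and 5.80, lay within the range of the LFD sons (4.64 to 6.45), and the 4 sons on number 48 were at 6.65 to 6.99. The call of Ces3b was lost without m-LF5, where p rose to 0.011. Ces2e fell by 0.26 on the log2 scale (adjusted p = 0.129), with a change of 0.01 within prefix G074, and leaving out m-LF5 or m-WS1 ended the call, with p up to 0.0217.

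Periportal genes had a median of 0.12, with 3 of 21 tested genes risen and none fallen (14.3% called). Without the 4 sons on number 48 the median was -0.02, with 1 gene risen and none fallen. Without the 2 WSD sons on number 40, 4 rose and 1 fell, and without the 2 LFD sons on number 50, 1 rose and 3 fell. Hsd17b13, an enzyme on the surface of lipid droplets, was at 10.73, 10.80 and 10.90 in LFD sons and at 10.97, 11.03 and 11.15 in WSD sons. All WSD sons lay above all LFD sons, and the change was 0.25 ± 0.06 (adjusted p = 0.0392). Hal and Ftcd, enzymes of histidine breakdown, changed by 0.41 (adjusted p = 0.159) and 0.20 (adjusted p = 0.104). Hal was highest in the 4 sons on number 48, at 11.02 to 11.16, while m-WS1 and m-WS2, at 10.84 and 10.79, lay within the LFD range of 10.10 to 10.96. Its call was lost when any of 7 single pups was left out, with p up to 0.0318. The mean level of the periportal list was between -0.06 and 0.09 in LFD sons and between -0.08 and 0.14 in WSD sons, so the groups overlapped.

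Pklr, the pyruvate kinase of liver, was at 9.96, 10.12 and 10.16 in LFD sons and at 9.51, 9.72 and 9.78 in WSD sons. All WSD sons lay below all LFD sons, and the change was -0.42 ± 0.07 (adjusted p = 0.00448). Slc2a2, the glucose carrier of the hepatocyte membrane, was at 10.55, 10.72 and 10.84 against 10.29, 10.42 and 10.51, a change of -0.32 ± 0.06 (adjusted p = 0.0155) with no overlap. With Glul these were the 3 genes that fell among 35 tested genes of glucose and amino acid metabolism (8.57%), and none rose. Gpd1, which links glycolysis to glycerol, was not called (-0.15, adjusted p = 0.282).

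In fatty acid oxidation and ketogenesis, 4 of 29 tested genes fell and none rose (13.8%). Cyp4a31, a fatty acid hydroxylase, was at 11.56, 11.70 and 11.83 in LFD sons and at 11.10, 11.35 and 11.51 in WSD sons. The groups did not overlap (-0.37 ± 0.08, adjusted p = 0.0274). Its paralogue Cyp4a14 (-0.37), the thioesterase Acot4 (-0.34) and Pdk4 (-0.41), the kinase that switches off pyruvate dehydrogenase, fell at p 0.01. The calls of Acot4 and Pdk4 were lost without single pups, with p up to 0.0407. Ppara, the receptor that drives these genes, failed the variability filter, and its change without the filter was -0.01. In fatty acid synthesis and triglyceride genes 2 of 30 fell, Mttp (-0.20, adjusted p = 0.102), which loads lipid on lipoproteins, and Acacb (-0.26, adjusted p = 0.177), which makes malonyl-CoA at mitochondria. Leaving out single pups ended both calls, with p up to 0.0477.

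In cholesterol synthesis 1 of 23 tested genes was called (4.35%, near the 5.62% of all genes), Sc5d (0.16, adjusted p = 0.158), and the median was 0.04. The prefixes went opposite ways: within G074 6 genes rose and none fell, with a median of 0.26, and within G073 none rose and 1 fell, with a median of -0.08. Without m-LF6 none rose and 1 fell, with a median of -0.02. The call of Sc5d was lost when any of 6 single pups was left out, with p up to 0.0293. Cyp51, a demethylase of that pathway, was at 6.74 to 8.24 in LFD sons and 7.02 to 7.69 in WSD sons, with a change of -0.11 (adjusted p = 0.895), or -0.43 within G073 and 0.45 within G074. Within LFD sons the mean of the list ran from -0.29 in m-LF6 to 0.44 in m-LF5, and all 6 WSD sons lay between, at -0.07 to 0.18. In sterol efflux and bile acids 2 of 20 tested genes rose and 1 fell (15%). Within prefix G074, where 114 of all 10810 tested genes were called, none of these was. Abcg5 and Abcg8, which together form the pump that moves sterols into bile, rose by 0.40 (adjusted p = 0.102) and 0.27 (adjusted p = 0.144). The study named both from these pups. Both were highest in the 4 sons on number 48: Abcg5 was at 11.41 to 11.44 there, at 11.09 and 11.05 in the 2 sons on number 40, and at 10.44 to 11.23 in LFD sons. The calls of Abcg5 and Abcg8 were lost without m-LF5, where p rose to 0.0124 and 0.0201, and that of Abcg8 also without other single pups. Cyp39a1, an enzyme of bile acid synthesis from oxysterols, fell with a change of -0.58 ± 0.15 (adjusted p = 0.0631), and m-LF6 at 9.76 lay below 5 of the 6 WSD sons. Nr1h3, the sterol receptor LXR alpha, failed the variability filter, with a change of 0.07.

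Afp, alpha-fetoprotein, the foetal counterpart of albumin, was at 9.32, 10.72 and 11.97 in LFD sons and at 8.64, 9.33 and 9.73 in WSD sons. The change was -1.48 ± 0.33 (adjusted p = 0.0333). Its size differed with the prefix, -2.04 within G073 and -0.53 within G074, where m-LF6 at 9.32 is 1 of the 2 LFD sons. Without m-LF6 the change was -1.77. Among 29 tested foetal and imprinted growth genes, 4 fell and 1 rose (17.2%): the growth inhibitor Cdkn1c (-0.42, adjusted p = 0.088) and the IGF2-clearing receptor Igf2r (-0.16, adjusted p = 0.122) fell with Afp and Gpc3, and the noncoding RNA Meg3 rose (0.55, adjusted p = 0.129). The calls of Igf2r and Meg3 were lost without single pups, with p up to 0.0157 and 0.0175. The study named Gpc3 and Meg3 from these pups. Without the 4 sons on number 48, none of the list fell and 1 rose, with a median of 0.01. Without the 2 sons on number 40, 6 fell and none rose. Within prefix G074, where 114 of all 10810 tested genes were called, 1 fell and 1 rose. The mean level of the list overlapped, with -0.16 to 0.33 in LFD sons and -0.23 to 0.01 in WSD sons. In the growth hormone and IGF list, 1 of 23 tested genes rose and 1 fell (8.7%). Igfbp3, a carrier of IGF1 in plasma, rose by 0.35 (adjusted p = 0.0947), with p up to 0.0106 when m-LF1 or m-WS2 was left out, and Cyp2d9, whose level in males follows growth hormone, fell.

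Markers of blood cell precursors were higher on average in WSD sons, but the ranges of the diets overlapped. Most had a low signal: of 27 measured neutrophil and myeloid precursor markers, 3 lay above the array median in every son. Of 24 tested neutrophil and myeloid precursor genes, 6 rose and none fell (25%), 23 had a positive change, and the median was 0.33. The granule and migration genes S100a9 (0.82, adjusted p = 0.137), Ltf (0.73, adjusted p = 0.168), Chil1 (0.44, adjusted p = 0.137), Ctsg (0.37, adjusted p = 0.0993), Cd177 (0.40, adjusted p = 0.163) and Cxcr2 (0.39, adjusted p = 0.0797) were those that rose, none at an adjusted p under 0.05. All but Cxcr2 lost their calls when some single pup was left out, with p up to 0.0316. The mean of the list, relative to LFD sons, was highest in m-LF5, an LFD son, at 0.70, while the WSD sons m-WS4 and m-WS5 were at 0.05 and 0.12. Within prefix G073, which holds those 3 pups, no gene of the list was called, and within G074 8 rose. Without m-LF6 10 rose. Without the 2 LFD sons on number 50, 16 rose, and without those on 37 or on 49 none did. Without the 2 WSD sons on number 40, 1 rose, and without the 4 on 48 1 rose.

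Genes of early B cells rose as well. In the B and T lymphocyte list 6 of 31 tested genes rose and 2 fell (25.8%). Of its 37 measured markers, 3 lay above the array median in every son. Igll1, a part of the surrogate light chain of precursor B cells, was at 5.76, 5.90 and 7.16 in LFD sons and at 6.78, 7.30 and 7.66 in WSD sons. The 5 LFD sons other than m-LF6 were at 6.00 or less. The change was 1.14 ± 0.25 (adjusted p = 0.0332), or 1.36 without m-LF6. The B cell transcription factors Ebf1 (0.89), Pax5 (0.72) and Spib (0.75), the receptor chain Cd79a (0.84) and the adaptor Blnk (0.64) rose at p 0.01 with adjusted p-values from 0.0856 to 0.177. The genes that fell were those of killer lymphocytes, Gzmb (-0.51, adjusted p = 0.102) and Nkg7 (-0.29, adjusted p = 0.176). The mean of the list was 0.39 in m-LF6 and -0.16 to -0.01 in the other LFD sons, and in WSD sons it was 0.45 and 0.43 on number 40 and 0.08 to 0.29 on number 48. Without m-LF6, 12 genes rose and 2 fell, and without the 2 sons on number 40 1 rose and 2 fell. Within prefix G074, where 114 of all 10810 tested genes were called, none of the list was. The calls of Blnk, Cd79a and Spib were lost without m-LF5, and those of Blnk, Spib and Nkg7 also without other single pups, with p up to 0.0477. The letters CCCNNGGGA, the core of the EBF1 site, searched on both strands in the 250 bases before the gene start, were found for none of the 6 genes that rose, for 1 of 23 tested list members and for 6.45% of 27025 genes.

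**Figure D4:**
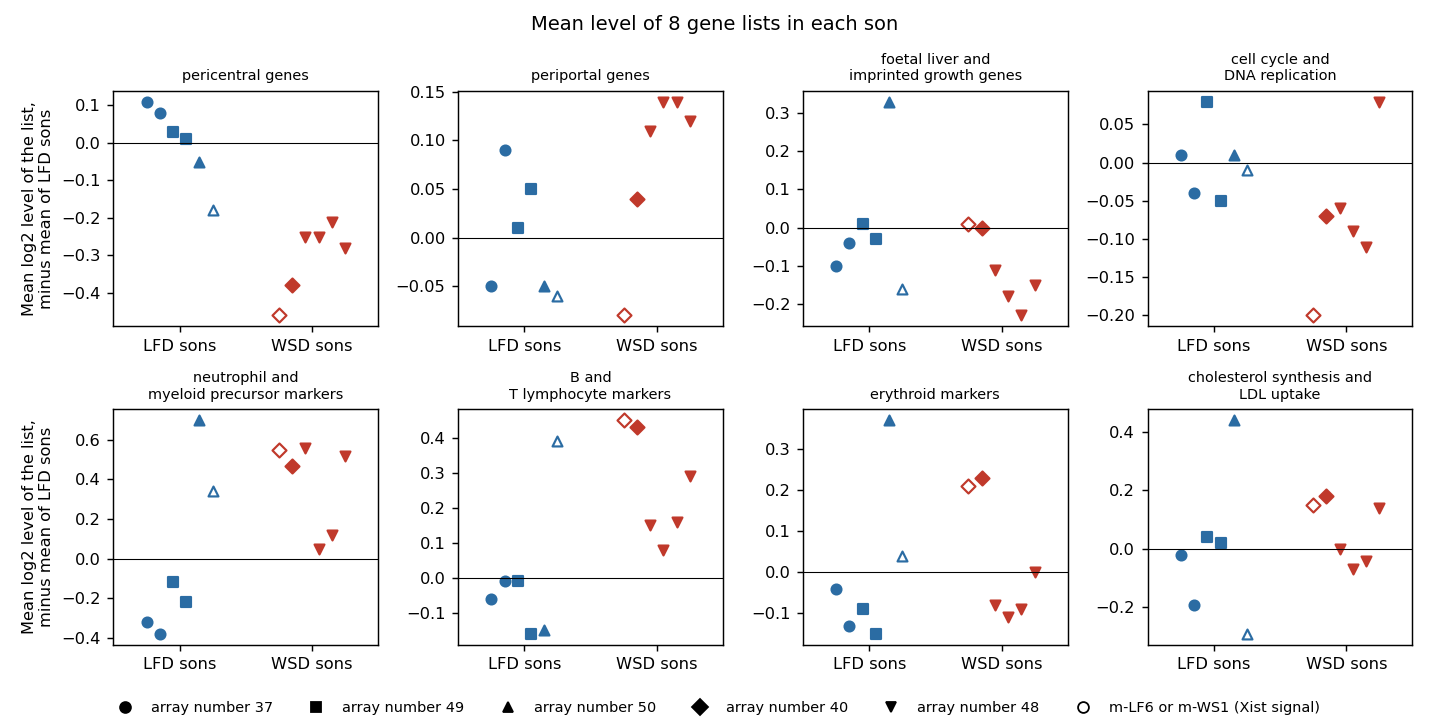
Mean log2 level of 8 gene lists in each LFD son (blue) and WSD son (red), relative to the mean of the LFD sons, with the number of the array name as the shape of the point and open points for m-LF6 and m-WS1. Pericentral genes separate the diets, at -0.18 or above in LFD sons and -0.21 or below in WSD sons, whereas in the neutrophil, lymphocyte and erythroid lists the diets overlap, and in the last 2 of these the sons on number 40 lie above those on 48.

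Erythroid genes had 1 of 25 tested genes called (4.0%), Car1 (0.66, adjusted p = 0.115), a carbonic anhydrase of red cells, whose call was lost without m-LF2 or m-LF3 (p up to 0.0136). The list stood at 0.21 and 0.23 in the sons on number 40, at -0.11 to 0.00 in those on number 48 and at 0.37 in m-LF5. Whether the blood cell genes moved with a share of cells of the liver was not tested. In Kupffer cell and antigen presentation genes, 1 of 36 rose and 1 fell (5.56%, near the share of all genes). Cd163, a receptor by which macrophages clear haemoglobin, was at 5.33, 5.78 and 6.13 in LFD sons and at 4.86, 5.19 and 5.39 in WSD sons. Only m-LF6 among the LFD sons lay below the highest WSD son, m-WS2, and the change was -0.59 ± 0.14 (adjusted p = 0.0437). H2-Ab1, a class II molecule of antigen-presenting cells, rose by 0.31 (adjusted p = 0.175), a call lost when any of 9 single pups was left out, with p up to 0.0299.

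Krt20, an intermediate filament of gut epithelium, was at 5.38, 6.10 and 6.37 in LFD sons and at 6.83, 7.31 and 7.46 in WSD sons. The groups did not overlap, and the change was 1.19 ± 0.17 (adjusted p = 0.000932), with an adjusted p of 0.00145 in the random-block fit. Krt23, also of epithelia, was at 5.89, 6.61 and 7.36 against 7.17, 7.54 and 7.73, a change of 0.80 ± 0.18 (adjusted p = 0.0387). In LFD sons Krt23 was highest in the 2 pups on number 50, at 7.36 and 7.17, and these alone reached the WSD range. Sox9 and Clec2h (0.52, adjusted p = 0.106), a C-type lectin-like protein, were the other 2 genes of the cholangiocyte and gut list that rose, and Mep1a (-0.45, adjusted p = 0.0759), a protease of brush borders, and Lgals2 (-0.40, adjusted p = 0.165), a galectin, fell, out of 26 tested (23.1%). The calls of Clec2h and Lgals2 were lost without single pups, with p up to 0.0131 and 0.0294. The list had a median of -0.08, and its mean level overlapped, with -0.36 to 0.46 in LFD sons and -0.16 to -0.04 in WSD sons. The study named Krt20, Sox9 and Clec2h from these pups.

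Stellate cell, fibroblast and matrix genes held 8 that fell and 3 that rose of 56 tested (19.6%), with a median of -0.01. In the random-block fit 6 fell and 2 rose. Within prefix G074, where 114 of all 10810 tested genes were called, none of the list was. Rarres1, a gene that retinoic acid induces, fell by 0.55 on the log2 scale (adjusted p = 0.0274), with the LFD sons m-LF5 and m-LF6 at 7.37 and 7.16 and the other 4 at 7.80 to 7.89, and the WSD sons at 6.94 to 7.27. Itih5 (-0.41), Gdf10 (-0.27), Reln (-0.22) and Lrat (-0.24), the last an enzyme that stores vitamin A in stellate cells, fell at p 0.01, and so did Fbln2, Olfml1 and Mxra8. Lama4 (0.45), a laminin chain of vessel walls, rose with no overlap, though its call was lost in the random-block fit, where p rose to 0.0102, and Col6a2 (0.33), a collagen chain, rose beside Igfbp3, the carrier of IGF1 described above. Rarres1, Itih5, Gdf10, Olfml1 and Mxra8 were picked by the study from these pups, so their count is not independent evidence of the list's direction. The calls of Lrat, Fbln2, Olfml1, Mxra8 and Col6a2 were lost without single pups, with p up to 0.0366.

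Mitochondrial and ribosomal genes had small changes, and their called shares were near or below the 5.62% of all genes. Of 61 tested genes of the TCA cycle and oxidative phosphorylation, 47 were higher and 14 lower on average, 4 rose and none fell (6.56%), and the median was 0.06. Suclg1, a subunit of succinyl-CoA ligase, was at 9.94, 10.11 and 10.19 in LFD sons and at 10.24, 10.35 and 10.40 in WSD sons. The groups did not overlap (0.24 ± 0.05, adjusted p = 0.033). Sdhb (0.22, adjusted p = 0.0947) and Ndufb10 (0.20, adjusted p = 0.0631), subunits of respiratory complexes II and I, and Cox6b1 (0.15, adjusted p = 0.167) also rose. Of 98 tested ribosomal protein genes 77 were higher and 21 lower on average, and 3 rose (3.06%), Mrpl23 (0.14), Mrpl14 (0.17) and Mrps18a (0.16), all of mitochondrial ribosomes. With arrays centred on their medians the list medians were 0.02 and 0.03, with 3 and 2 genes risen. The calls of Cox6b1, Mrpl14 and Mrpl23 were lost without single pups, with p up to 0.0396.

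Cell cycle genes had 3 falls and 1 rise among 54 tested (7.41%, near the 5.62% of all genes), with 41 genes lower on average and a median of -0.07. Ccne1, the cyclin that starts DNA replication, was at 7.29, 7.60 and 7.76 in LFD sons and at 6.98, 7.05 and 7.42 in WSD sons, a change of -0.45 ± 0.11 (adjusted p = 0.0511). It was -0.62 within G073 and -0.16 within G074. Cdc6 (-0.28) and Ccnd2 (-0.18) fell and Mcm10 (0.28) rose at p 0.01, and each of these 3 calls was lost without some single pup, with p up to 0.0303. In the list of proteasome and endoplasmic reticulum stress genes Psmd7 (-0.23) and Psmd13 (-0.19) fell and Psmb10 (0.20), a subunit of the immunoproteasome, rose, of 44 tested (6.82%), and the call of Psmd13 was lost without m-LF2, where p rose to 0.0104. In the interferon list Usp18, which restrains interferon signalling, was the only call of 42 (2.38%), at 8.71, 8.94 and 9.19 against 8.30, 8.47 and 8.58 (-0.50 ± 0.10, adjusted p = 0.021), with no overlap. Of 39 clock and immediate-early genes (2.56% called) only Tef, a clock-controlled transcription factor, changed at p 0.01 (0.22, adjusted p = 0.0961), and without m-LF2 p rose to 0.0101. Of 36 genes of conjugation and drug transport (8.33% called), Ugdh (0.26), Gsto1 (0.28) and Sult1c2 (0.26) rose, the last 2 not without some single pups, with p up to 0.0189 and 0.0429. Nr5a2 (0.21, adjusted p = 0.057), a nuclear receptor of bile acid genes, was the 1 called of 12 tested hepatocyte markers. Car3 (0.41, adjusted p = 0.0883) was the 1 called of 13 tested pancreas and adipose markers, and is also made by liver.

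**Figure D5:**
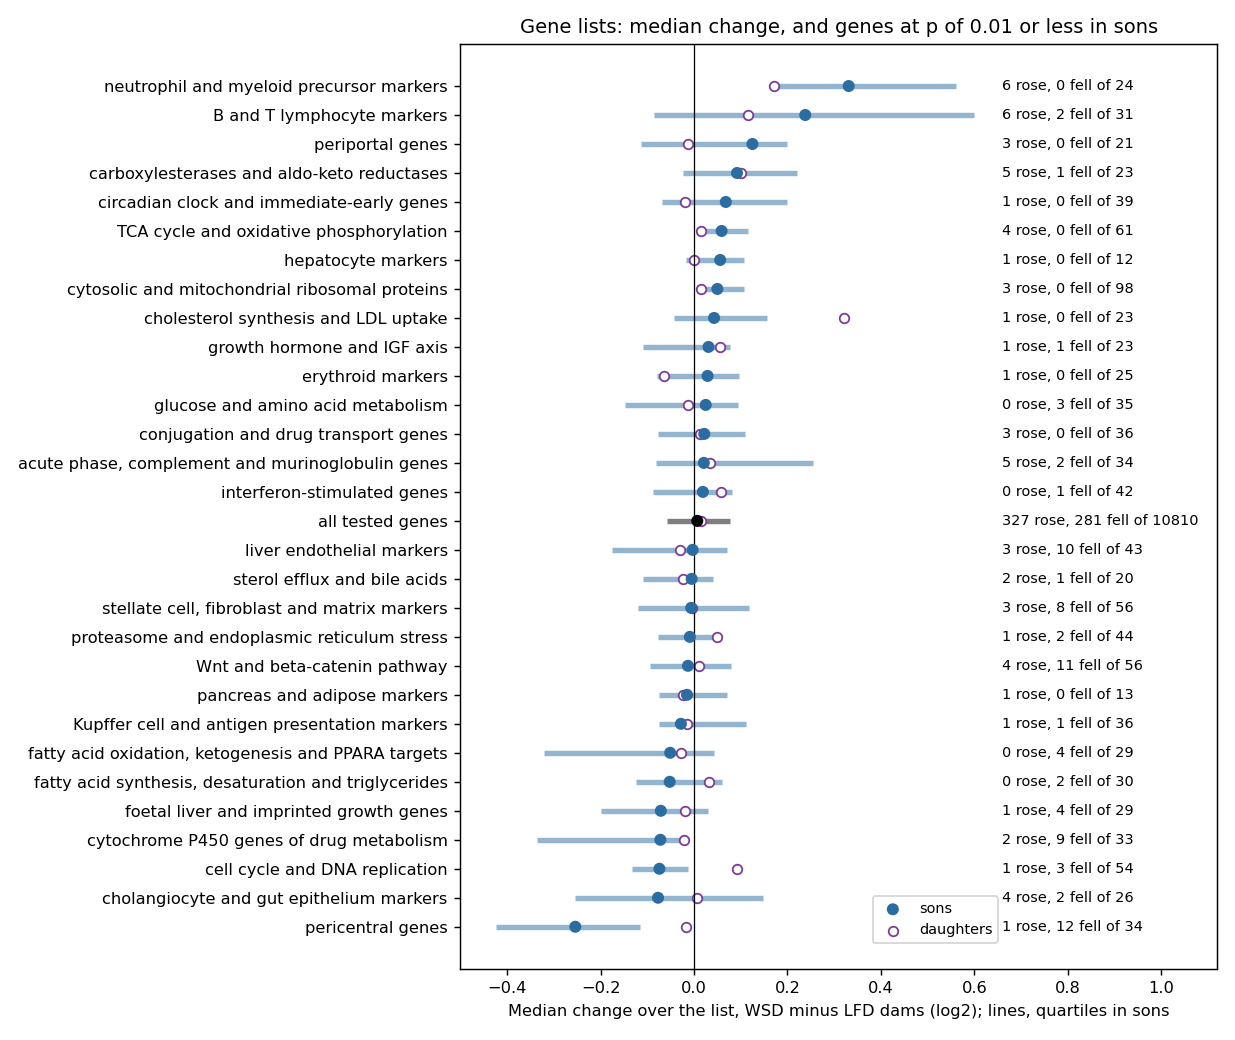
Median change over each gene list in sons (filled points, with lines from the lower to the upper quartile) and in daughters (open points), WSD minus LFD on the log2 scale, with the number of genes that rose and fell in sons at the right. Pericentral genes lie lowest in sons at -0.25 and at -0.02 in daughters, neutrophil markers lie highest at 0.33, and all tested genes (black) lie at 0.01.

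The 15 largest falls and 15 largest rises at an adjusted p under 0.05 held further genes. Beside those above, the falls included Nxpe2 (-0.86 ± 0.17, adjusted p = 0.0173), at 9.15 to 9.98 in LFD sons and 8.74 to 8.94 in WSD sons, and Pcp4l1 (-0.84 ± 0.19, adjusted p = 0.036), at 9.30 to 10.14 against 8.82 to 9.0. In both the groups did not overlap, and the SD of the WSD sons was 0.07. Npr3, the clearance receptor of natriuretic peptides, was at 6.35 to 6.60 in WSD sons and in m-LF6 at 6.49, while the other LFD sons were at 6.98 to 7.51 (-0.72, adjusted p = 0.0437). Plppr1 (-0.66), B3galt1 (-0.62), a galactosyltransferase, and Spink1 (-0.87), a trypsin inhibitor, completed the falls. Spink1 changed by -1.25 within G073 and by -0.16 within G074. The rises held Klhl24 (0.56 ± 0.12, adjusted p = 0.0227), with no overlap, Serpinb8 (0.81), Klhl4 (0.63), Aspg (0.57), an asparaginase, Bdh2 (0.50), Ano5 (0.50), Sh2d4a (0.49) and the predicted gene Gm10319 (1.51 ± 0.34, adjusted p = 0.0351).

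The change in sons was set against that of 9 LFD and 6 WSD daughters by the difference of the changes. At p 0.01, 270 genes differed (2.5%), and none did at an adjusted p under 0.05, where the smallest was 0.182. Leaving out number 48 dropped WSD daughters as well as the 4 sons. The count was then 402, and 2 of these passed the adjusted threshold. At p of 0.05 or less, 1060 genes differed. Of the 608 genes called in sons, 52 were also called in daughters, where 5.19% of all tested genes were called. For 419 of the 608 the change had the same sign in daughters. The matching share over all tested genes was not computed, so nothing is read from this count about the called genes. The 10 genes of smallest p among those called in sons come first, so they were already selected by their change in sons. Each adjusted p here is that of the difference in limma. Pklr changed by -0.42 in sons and 0.03 in daughters (adjusted p = 0.182), Cyp3a44, an enzyme with a female-biased pattern, by -0.40 and 0.32 (adjusted p = 0.182), and Lacc1, a macrophage enzyme, by -0.27 and 0.26 (adjusted p = 0.182). Pls1, an actin bundler of epithelia, changed by -0.32 and 0.01 (adjusted p = 0.237), Mrgpre by 0.28 and -0.27 (adjusted p = 0.237), Paqr9 by -0.22 and 0.18 (adjusted p = 0.242), Tmem64 by -0.16 and 0.13 (adjusted p = 0.277), Abcg8 by 0.27 and -0.24 (adjusted p = 0.315), Ncald by -0.19 and 0.14 (adjusted p = 0.315) and Mrpl23 by 0.14 and -0.11 (adjusted p = 0.316). Of these 10, the call in sons alone was lost without some single pup for Lacc1, Mrgpre, Paqr9, Tmem64, Abcg8, Ncald and Mrpl23. For Glul the changes were -0.67 and 0.01 (adjusted p = 0.366), for Rhbg -1.04 and 0.00 (adjusted p = 0.366), for Jam2 -0.79 and -0.02 (adjusted p = 0.355) and for Wnt2 -0.92 and 0.02 (adjusted p = 0.386). For Krt20 they were 1.19 and 0.91 (adjusted p = 0.708), with a difference of 0.28. None of these differences passed the adjusted threshold.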

How the data were processed

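Affymetrix Mouse Gene ST arrays measured liver RNA of 27 pups. Values are log2 intensities that the authors summarised by RMA (background correction, quantile normalization and median polish) before they were deposited, for 35556 probe sets. Of these, 21218 map to 1 gene, 1881 to several and 12457 to none in the platform annotation. The probe set of highest mean stood for each of 18820 genes. The filter thresholds were those of the study's methods, which applied them to redefined probe sets and not to the manufacturer's probe sets used here, so the tested genes differ. A gene was tested when its intensity was at least 20 on at least 4 arrays and its interquartile range at least 0.1 on the log2 scale, which 10810 genes were. The 4 groups of sex and maternal diet entered 1 limma fit (limma 3.58.1, R 4.3.3) with an intensity trend, and p was adjusted by Benjamini-Hochberg. Scripts ran in Python 3.11.15. No count underlies an array value, so the number of pups limits the precision. On simulated data with 200 changed genes at each size, 81%, 96.5% and 100% of changes of 0.3, 0.5 and 1 on the log2 scale were recovered at p 0.01. At an adjusted p under 0.05 these shares were 56.5%, 93% and 99.5%. The simulated pups were independent, with no likeness within array numbers, so the shares hold for independent pups only.

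The 12 sons and the 30 gene lists were chosen with earlier results of these data known. The genes named by rule were the 15 largest rises and 15 largest falls at an adjusted p under 0.05. The rule also took up to 4 members of smallest p of each list, and 8 genes that the study measured by PCR. It added Y-linked genes and Xist, and the 10 genes called in sons with the smallest p for the difference from daughters. Other genes named were chosen after their values were seen. Levels are compared between pups and not between genes. Promoter sequences and coordinates are those of RefSeq on GRCm38.p6, 250 bases before the gene start. Alternatives were other filters, priors and normalizations, array weights, the array number as a random block or averaged, each number, prefix or pup left out, and a block by replicate number. Probe sets with several or no genes were used only for the counts in the closing section.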

Additional observations from a re-analysis of the deposited data

Results flagged for a closer look

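Single pups far from the rest of their group were sought in 450 pairs of a gene and a diet group by Dixon's test. The test found 39 pairs, against 22.5 that chance gives at 1 in 20. Of these, 14 fell on m-LF6, 7 on m-LF5, 5 on m-WS6, 3 each on m-WS2 and m-WS3, 2 each on m-WS1 and m-WS4, and 1 each on m-LF1, m-LF2 and m-WS5.

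In m-LF6 the values far from the other LFD sons were Xist at 9.30, Aldh1a1 at 8.70, Cyp2b10 at 7.93, Dll4 at 7.19, Hamp2 at 6.42, Igll1 at 7.16, Itih5 at 7.09, Mug1 at 11.24, Mug2 at 10.38, Nxpe2 at 9.15, Pax5 at 6.43, Pls1 at 8.43, Serpina3n at 12.36 and Wnt2 at 5.75. Apart from Xist, each of these lay on the side of the WSD sons. More widely, m-LF6 was nearer to the mean of the WSD sons than to that of the other LFD sons for 389 of the 608 called genes (64.0%), whereas for each of the other 11 sons this share for the other diet was between 7.89% and 18.6%. The source of this placement was not tested.

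In m-LF5 they were Aspg at 7.37, Cyp2b13 at 8.77, Cyp2d13 at 9.78, Cyp2d40 at 8.22, Cyp2d9 at 9.48, Insig1, a regulator of sterol sensing, at 9.74, and Pnliprp1, a lipase-related protein of pancreas, at 6.36. In m-WS6 they were Acly at 9.38, Cyp2b13 at 7.11, Dixdc1 at 6.44, Fads6 at 7.98 and Mrps18a at 8.58. In m-WS2 they were Acot4 at 7.98, Ednrb at 8.68 and Igfbp3 at 10.01, and in m-WS3 Gzmb at 4.38, Hhip at 6.20 and Lmbr1l at 7.48. In m-WS1 they were Xist at 7.92 and Steap4 at 9.51, in m-WS4 Cdc6 at 5.47 and Clps at 4.58, in m-WS5 Cyp2c50 at 8.60, in m-LF1 Clmn at 8.35 and in m-LF2 the Y-linked Zfy2 at 3.20.

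Probe sets outside the gene comparisons also held calls in limma. Of 940 tested probe sets with several genes, 10 rose and 14 fell at p 0.01, and 3 passed the adjusted threshold. Of 7667 tested probe sets with no gene, 36 rose and 56 fell, and 2 passed it.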

How the results depend on the processing

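At p 0.01 the count of 608 changed genes moved to 242 with arrays of a number averaged, to 400, 349, 965 and 324 without the sons on numbers 37, 49, 50 and 48, and to 400 and 114 within prefixes G073 and G074. At an adjusted p under 0.05 the count of 79 became 33 with no filter, 52 with a robust prior, 159 with sons fitted alone, 236 with array weights, 50 with the prefix as a fixed block, 45 within G073 and 0 within G074. It was 7 with the array number as a random block and 0 with numbers averaged, and 2, 1, 488, 0 and 5 without the sons on numbers 37, 49, 50, 40 and 48. Leaving out single pups gave 11 to 289 adjusted calls, lowest without m-LF2 or m-WS3 and highest without m-LF6, and 229 without m-LF6 and m-WS1, while the count at p 0.01 ran from 487 to 812. The count of genes whose change differed between sons and daughters moved from 270 to 99 with numbers averaged and to 103 and 159 without numbers 40 and 49, and to 402 without number 48, with 2 at an adjusted p under 0.05, and 398 without m-LF6. The causes were not tested, though settings that leave out pups or stay within a prefix also hold fewer pups, and averaging leaves fewer units. Of 185 called genes followed through 35 settings, 16 were called in all, 60 lost their call without some single pup, and 1 reversed, Ces2e, with 0.01 within G074. With arrays shifted to a common median, 600 genes were called, 42.0% of them rises. Replicate numbers of the labels do not pair the sons, as deviations of same-numbered sons correlated from -0.255 to 0.109. With the number as a replicate block in sons alone, 580 genes were called, 113 at an adjusted p under 0.05. Arrays give no read depth, and the 6 pups per diet limit the precision.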

Other observations

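Some genes at an adjusted p under 0.05 belong to no list above, and those named here were chosen after their values were seen. Gpd2, the mitochondrial glycerol-3-phosphate dehydrogenase, was at 8.68 to 9.40 in LFD sons and 8.45 to 8.80 in WSD sons, a change of -0.57 (limma, adjusted p = 0.0392), and only m-LF6 lay in the WSD range. Tkfc, which phosphorylates glyceraldehyde and dihydroxyacetone, changed by -0.34 (adjusted p = 0.0309) with no overlap between groups and kept its call in all 35 settings. Sqor, which oxidises hydrogen sulphide in mitochondria, changed by 0.32 (adjusted p = 0.0227), also with no overlap.

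Hhip, which binds and restrains hedgehog ligands, changed by -0.55 (adjusted p = 0.0392) and Cd300lg, a receptor of endothelial cells, by -0.52 (adjusted p = 0.0351), both with no overlap. Smad3, a transducer of the TGF-beta signal, was at 7.45 to 7.81 in LFD sons and 7.90 to 7.99 in WSD sons, a change of 0.29 (adjusted p = 0.033). In daughters Smad3 changed by -0.03, and the difference had an adjusted p = 0.355, with no gene passing the adjusted threshold for that difference. Sox11, a developmental transcription factor, rose by 0.41 (adjusted p = 0.036) from a low level, 4.53 to 4.95 in LFD sons, with no overlap.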
